A study of Caenorhabditis elegans with 12 samples.

Results

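The 10 genes described here encode ligands, receptors and SMAD-type transcriptional components of the C. elegans TGF-beta pathways. They were named in advance as the daf-7 pathway genes daf-7, daf-1, daf-4, daf-8, daf-14, daf-3 and daf-5 and the further ligands dbl-1, unc-129 and tig-2. They were found through the platform's probe annotation, whatever their signal. All 10 were among the 17118 genes that the array measured with a probe set assigned to a single gene, and 17 probe sets reported on them. Of the 10 genes, 4 had 1 probe set and 6 had several; each gene is represented by its brightest probe set, judged by the average of all 12 arrays, and the others are given beside it.

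TGF-beta ligands bind a pair of type I and type II serine/threonine kinase receptors, which phosphorylate receptor-regulated SMAD proteins that act with a co-SMAD in the nucleus. In C. elegans the DAF-7 branch controls the choice between reproductive growth and the dauer larva: DAF-7, made chiefly by the ASI sensory neurons of the head, signals through the receptors DAF-1 and DAF-4 and the SMADs DAF-8 and DAF-14, which oppose the co-SMAD DAF-3 and its partner DAF-5. The DBL-1 or Sma/Mab branch sets body size and male tail patterning, with DBL-1 made mainly by neurons, and shares the type II receptor DAF-4. UNC-129 is a ligand of dorsal body wall muscle that guides motor axons.

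Transcripts were measured on Affymetrix arrays in 4 groups of 3 arrays, namely mir-124 mutant GFP+, mutant GFP-, wild-type GFP+ and wild-type GFP- cells. mir-124 is a microRNA gene, and all 4 groups carried an integrated transgene that places GFP under the mir-124 promoter together with a lin-15(+) rescue plasmid, made in lin-15 (n765) worms and outcrossed into N2. The mutant's mir-124 allele, and whether both strains carried the same integrant, are not given in the sources used here. Dissociated embryonic cells were kept in culture for 24 hours, and a cell sorter collected 500000 of them for each sample, so the fractions are cultured embryonic cells in which the promoter was active (GFP+) or not (GFP-), and the GFP- fraction mixes many tissues. The series calls the triplicates biological; separate cultures are not stated for them, so the p-values measure only the spread among the arrays at hand, part of which may be technical. In sorted bulk cells, fewer cells of a type and less RNA per cell cannot be told apart.

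The fractions differed in their markers as labelled, except for a single library. The mean log2 signal of 14 ciliated sensory neuron genes was 8.19 to 8.65 in mutant GFP+ cells, against 5.08 to 5.18 in mutant GFP- cells. The mean of 13 body wall muscle genes was 7.07 to 7.63 in mutant GFP+ cells, against 9.85 to 10.64 in mutant GFP- cells. In the library labelled wild-type GFP- replicate 3 the same means were 8.87 for cilium and 7.36 for muscle genes, and this library correlated with wild-type GFP+ replicate 3 at 0.977 across probe sets. Those 2 arrays also had a wider gap between 3' and middle control probe sets, 4.22 and 4.06 log2 units against 1.67 to 2.31 on the other 10. The tests between the fractions and the counts of called genes are therefore given from all 12 arrays and from the 10 arrays without the wild-type replicate 3 pair, while other probe sets of a gene, single genes of the lists and some intervals are given from the 10 arrays, as stated at each. Array medians lay between 5.39 and 5.51. The annotation assigns no probe set to mir-124, and the strain labels were not checked through it.

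**Figure D1:**
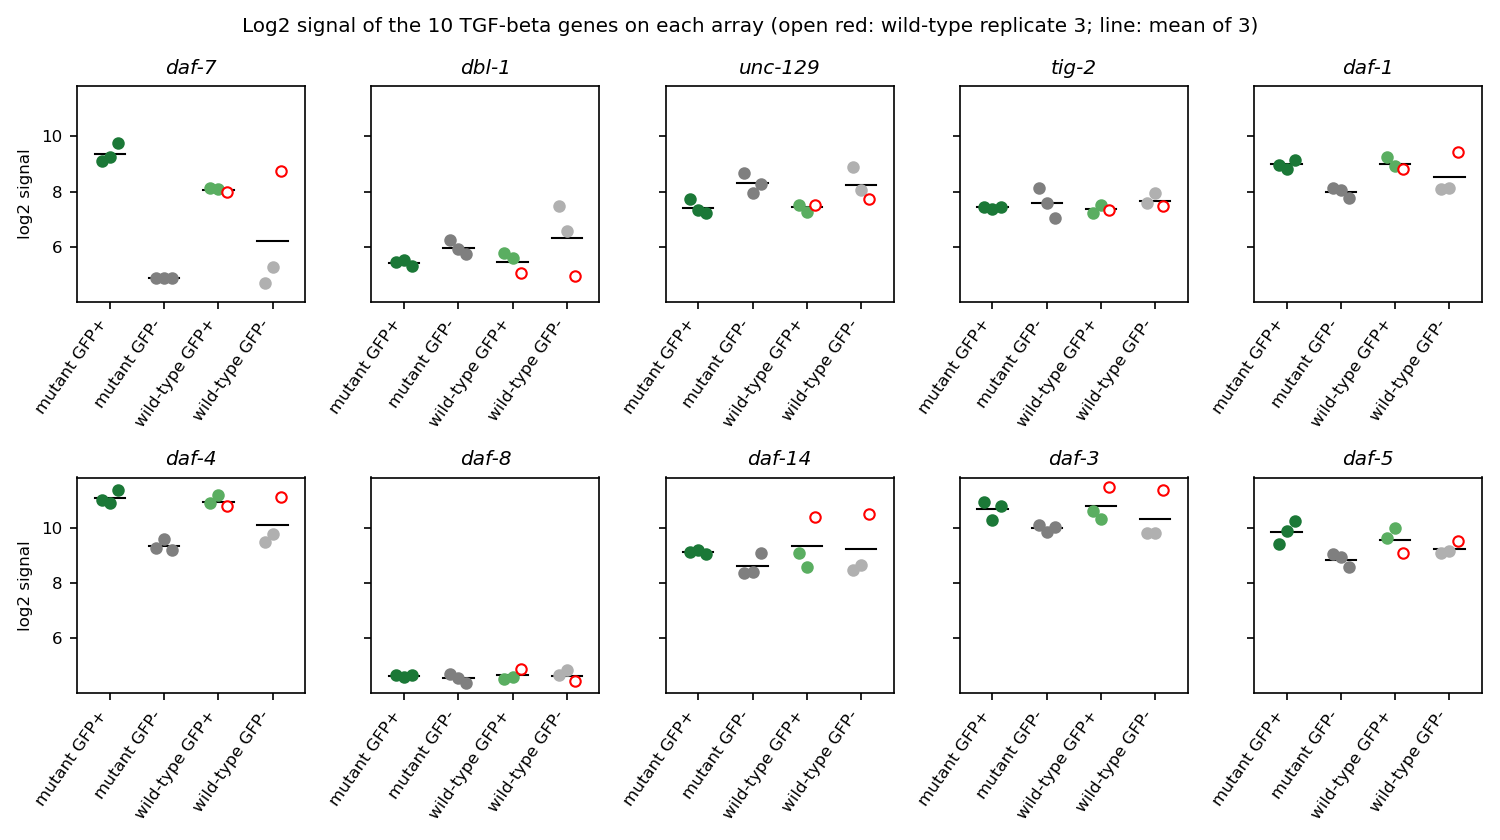
Log2 signal (vertical axis) of each of the 10 genes on each array, grouped as mutant GFP+, mutant GFP-, wild-type GFP+ and wild-type GFP- (horizontal axis). Points are arrays, lines are means of 3, and open red circles are the wild-type replicate 3 arrays. daf-7 lies between 9.11 and 9.77 in mutant GFP+ cells and at 4.88 in mutant GFP- cells, while the open circle of wild-type GFP- cells is at 8.75.

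Between the fractions of the mutant, the daf-7 ligand, its receptors daf-1 and daf-4 and the nuclear components daf-3 and daf-5 were higher in GFP+ cells, and the muscle ligand unc-129 was lower, in the 10-array fit. The differences themselves rest on the 6 mutant arrays in both fits, but the standard errors are shared with the wild-type arrays, so the 12-array fit called fewer. With limma, an adjusted p (Benjamini-Hochberg over 22548 probe sets) of 0.05 was passed by 3 genes higher and 0 lower over 12 arrays, where 5 of the 10 genes had an unadjusted p under 0.05. It was passed by 5 higher and 1 lower over 10 arrays. The background over all 17118 genes was 6.36% higher and 6.6% lower over 12 arrays, and 14.3% higher and 14.6% lower over 10. Over 12 arrays 4957 of the 17118 genes had an unadjusted p under 0.05. The median difference of the 10 genes was 0.585 on the log2 scale, against 0.009 for all genes. Every mutant GFP+ array was above every mutant GFP- array for daf-7, daf-1, daf-4, daf-3 and daf-5, and below for dbl-1 and unc-129; such separation held upward for 21% of all genes and downward for 21.3%.

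In the wild type, 0 of the 10 genes were called over 12 arrays, where 0.00584% of genes were called in either direction. An unadjusted p under 0.05 was held by 3 of the 10 genes and by 2183 of all 17118. Without the replicate 3 pair, limma called daf-7, daf-4 and daf-1 higher and dbl-1 and unc-129 lower in wild-type GFP+ cells, against 8.78% of all genes higher and 8.07% lower. Each wild-type arm of that fit holds 2 arrays. The median difference of the 10 genes in the wild type was 0.225 over 12 arrays, against 0.009 for all genes, and 0.462 over 10 arrays, against -0.024 for all genes.

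**Figure D2:**
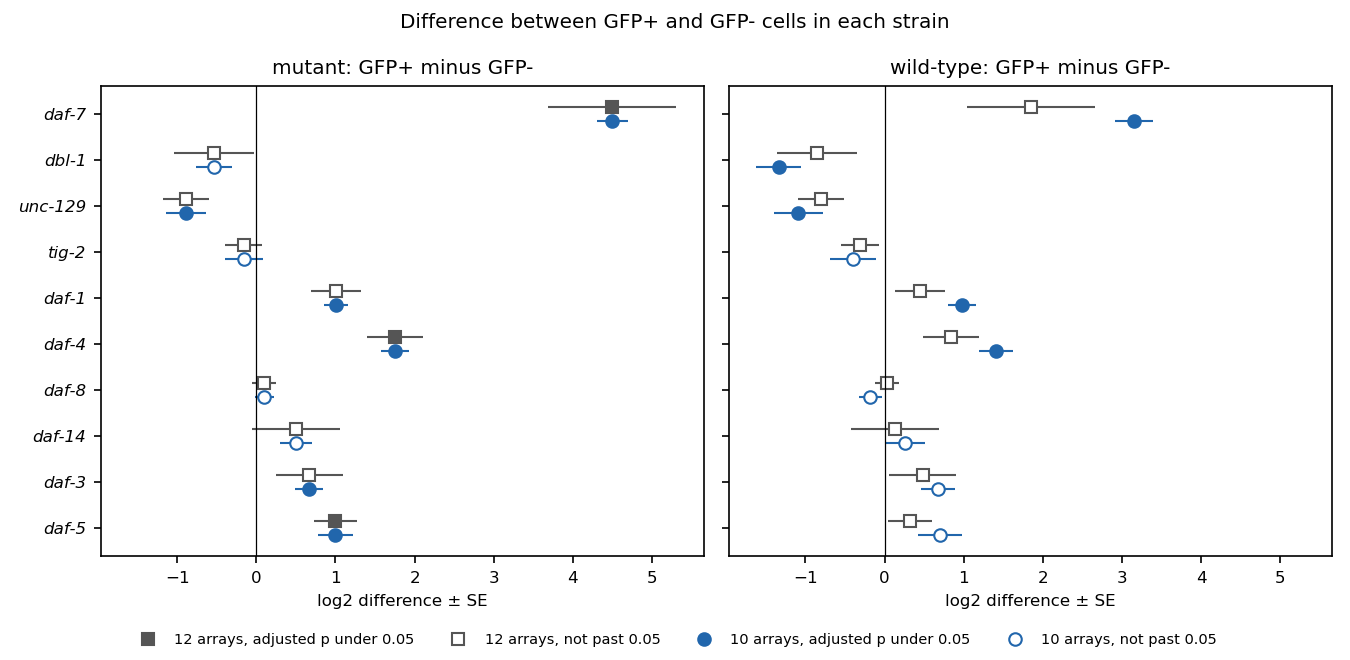
Log2 difference (horizontal axis) between GFP+ and GFP- cells for each of the 10 genes (vertical axis), in the mutant on the left and the wild type on the right. Squares are the 12-array fit, circles the 10-array fit, bars the standard error, and filled symbols an adjusted p under 0.05. The daf-7 estimate is 4.50 in the mutant in both fits, and in the wild type 1.85 over 12 arrays and 3.15 over 10.

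Among the ligands, daf-7 gave the widest range. Its log2 signal was 9.11, 9.25 and 9.77 in mutant GFP+ cells, against 4.88, 4.88 and 4.88 in mutant GFP- cells. Wild-type GFP+ cells had 8.13, 8.09 and 7.99, against 4.67, 5.25 and 8.75 in wild-type cells labelled GFP-. The fractions did not overlap in the mutant, and in the wild type they overlapped through GFP- replicate 3 alone, which was higher than all 3 wild-type GFP+ arrays.

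The mutant difference in daf-7 was 22.6-fold (4.50 on the log2 scale), with an SE of 0.809 over 12 arrays (limma adjusted p = 0.0142) and 0.195 over 10 (adjusted p = 1.22e-06). It was the 23rd highest difference of 17118 genes. Among wild-type cells it was 1.85 ± 0.809 (SE) over 12 arrays, which did not pass the test (limma adjusted p = 0.4). Without the replicate 3 pair it was 3.15 ± 0.239, or 8.88-fold (limma adjusted p = 4.74e-05). The mutant call over 12 arrays was lost without mutant GFP+ replicate 1, 2 or 3 or mutant GFP- replicate 1 or 3 (limma adjusted p = 0.0514 to 0.0602), while the difference stayed between 4.30 and 4.63. Of 6 genes listed as markers of the ASI neurons, limma called 1 higher and 0 lower in mutant GFP+ cells over 12 arrays. Over 10 arrays it called 2 higher and 0 lower. Of all genes, 6.36% were called higher over 12 arrays and 14.3% over 10. The mean of the 6 genes was 5.02 to 5.12 in mutant GFP+ cells, against 4.06 to 4.17 in mutant GFP- cells. That gap rested mainly on daf-28, an insulin-like peptide (4.71), while ins-6 differed by 0.66 and str-3, gpa-4, str-2 and srd-1 by 0.04 to 0.11, and the list's median was 0.11. The part of ASI cell number in the daf-7 difference was not tested.

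dbl-1, the ligand of the body size branch, ran the other way. The arrays gave dbl-1 a log2 signal of 5.44, 5.53 and 5.29 in mutant GFP+ cells, against 6.24, 5.92 and 5.72 in mutant GFP- cells. The wild-type signal was 5.78, 5.58 and 5.03 in GFP+ cells, against 7.47, 6.56 and 4.92 in cells labelled GFP-. The mutant fractions did not overlap, and in the wild type GFP- replicate 3 was the lowest array.

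The mutant difference in dbl-1, -0.54, did not pass the test over 12 arrays (limma adjusted p = 0.565) or 10 (adjusted p = 0.112); with replicate number within strain as a block, the 10-array fit gave an adjusted p of 0.0378. Leaving out wild-type GFP- replicate 1 or 2 from that fit gave 0.0366 without a block. Wild-type dbl-1 was lower in GFP+ cells over 10 arrays, with a log2 difference of -1.34 ± 0.279 (SE, limma adjusted p = 0.0109). Without wild-type GFP- replicate 1 it was -0.88 (limma adjusted p = 0.0559), and without wild-type GFP+ replicate 2 it was -1.23 (adjusted p = 0.0792). The 12-array value was -0.85 ± 0.505 (adjusted p = 0.533). A second dbl-1 probe set gave smaller differences, -0.16 in the mutant and -0.39 in the wild type over 10 arrays, neither past the threshold (limma adjusted p = 0.619 and 0.357). Both dbl-1 probe sets are of the kind that can also bind related transcripts. Ventral cord motor neurons are the cell class known for dbl-1. Of 12 listed genes of these neurons, limma called 0 higher and 0 lower in mutant GFP+ cells over 12 arrays. There 6.36% of all genes were called higher and 6.6% lower. An unadjusted p under 0.05 was held by 5 of the 12 genes and by 4957 of all 17118. Over 10 arrays limma called 3 higher and 0 lower, where 14.3% of all genes were called higher and 14.6% lower. In the wild type it called 0 over 12 arrays, where 0.00584% of all genes were called. There 0 of the 12 genes had an unadjusted p under 0.05, against 2183 of all 17118. Over 10 arrays it called 1 higher, where 8.78% of all genes were called higher. The mean of the 12 genes was 6.61 to 7.08 in mutant GFP+ cells, against 5.97 to 6.82 in mutant GFP- cells, so the mutant fractions overlapped in it. Without replicate 3 it was 6.995 to 7.035 in wild-type GFP+ cells, against 6.418 to 6.673 in wild-type GFP- cells. These did not overlap, and GFP+ cells were the higher, unlike for dbl-1. With replicate 3 the wild-type ranges were 6.365 to 7.035 and 6.261 to 6.673, and overlapped. The part of these neurons in the dbl-1 difference was not tested.

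unc-129 was lower in GFP+ cells of both strains in the 10-array fit. The log2 signal of unc-129 was 7.72, 7.33 and 7.22 in mutant GFP+ cells, against 8.69, 7.96 and 8.28 in mutant GFP- cells. Values in wild-type GFP+ cells were 7.51, 7.27 and 7.51, against 8.90, 8.07 and 7.74 in wild-type cells labelled GFP-. Each GFP+ array was below each GFP- array of its strain, the library labelled wild-type GFP- replicate 3 included, although it was the lowest of the GFP- arrays.

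The mutant difference in unc-129 was -0.89, with an SE of 0.290 over 12 arrays (limma adjusted p = 0.0722) and 0.254 over 10 (adjusted p = 0.0286). Blocking on replicate number, within strain or across all groups, gave adjusted p = 0.037 and 0.0282 over 12 arrays. The wild-type difference was -0.80 ± 0.290 over 12 arrays (limma adjusted p = 0.328) and -1.09 ± 0.312 over 10 (adjusted p = 0.0425). The 10-array mutant call was lost without mutant GFP+ replicate 2 or 3 or mutant GFP- replicate 1 or 3 (differences of -0.90 to -0.70, limma adjusted p = 0.0536 to 0.0961). The wild-type call was lost without wild-type GFP+ replicate 1 or 2, wild-type GFP- replicate 1 or mutant GFP+ replicate 2 or 3 (-1.21 to -0.68, adjusted p = 0.0527 to 0.251). All 13 body wall muscle markers were called lower in GFP+ cells of both strains over 10 arrays. Of all genes, 14.6% were called lower in the mutant and 8.07% in the wild type. The part of muscle cell number in the unc-129 difference was not tested.

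tig-2, a further TGF-beta family ligand, showed no called difference. Its log2 signal was 7.45, 7.38 and 7.45 in mutant GFP+ cells, against 8.12, 7.60 and 7.04 in mutant GFP- cells. Wild-type cells gave 7.22, 7.51 and 7.34 in GFP+ cells, against 7.60, 7.93 and 7.48 in cells labelled GFP-. The fractions overlapped in both strains, in the wild type through GFP- replicate 3 alone. The 10-array difference was -0.16 in the mutant (95% interval -0.70 to 0.38; limma adjusted p = 0.689) and -0.40 in the wild type (-1.06 to 0.26; adjusted p = 0.451). Over 12 arrays it was -0.16 ± 0.237 (SE) and -0.31 ± 0.237 (limma adjusted p = 0.749 and 0.639).

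The receptor genes daf-4 and daf-1 were higher in GFP+ cells of both strains over 10 arrays, while over 12 arrays daf-4 alone was called, in the mutant. daf-4 encodes the type II receptor that both branches use, and it had a log2 signal of 11.01, 10.92 and 11.38 in mutant GFP+ cells, against 9.27, 9.60 and 9.18 in mutant GFP- cells. For the wild type the arrays read 10.89, 11.18 and 10.80 in GFP+ cells, against 9.48, 9.77 and 11.11 in cells labelled GFP-. The mutant fractions did not overlap, and in the wild type GFP- replicate 3 lay among the GFP+ arrays.

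In the mutant daf-4 differed 3.36-fold (1.75 on the log2 scale), with an SE of 0.354 over 12 arrays (limma adjusted p = 0.0177) and 0.174 over 10 (adjusted p = 9.73e-05). Between the wild-type fractions it was 0.84 ± 0.354 over 12 arrays (limma adjusted p = 0.385) and 1.41 ± 0.213, or 2.66-fold, over 10 (adjusted p = 0.00204). The mutant call over 12 arrays was lost without the same 5 mutant arrays as for daf-7 (differences of 1.61 to 1.84, limma adjusted p = 0.0573 to 0.0654). A second daf-4 probe set, of the kind that can also bind related transcripts, also passed the threshold over 10 arrays. It gave 1.95 ± 0.113 in the mutant and 1.73 ± 0.138 in the wild type (limma adjusted p = 4.32e-06 and 6.04e-05). On it, wild-type GFP+ replicate 3 was at 4.48, against 7.44 and 7.47 on the other wild-type GFP+ arrays, so the replicate 3 arrays differed from their groups on both daf-4 probe sets but in different fractions.

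daf-1 encodes the type I receptor of the dauer branch. Its log2 signal was 8.97, 8.83 and 9.16 in mutant GFP+ cells, against 8.13, 8.04 and 7.76 in mutant GFP- cells. On the wild-type arrays it was 9.26, 8.91 and 8.82 in GFP+ cells, against 8.10, 8.12 and 9.42 in cells labelled GFP-. As for daf-4, the fractions overlapped in the wild type only, through GFP- replicate 3, here the highest of the 12 arrays.

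For daf-1 the mutant difference was 2.01-fold (1.01 on the log2 scale), with an SE of 0.314 over 12 arrays (limma adjusted p = 0.062) and 0.149 over 10 (adjusted p = 0.00103). In the wild type it was 0.45 ± 0.314 over 12 arrays (limma adjusted p = 0.604) and 0.98 ± 0.182 over 10 (adjusted p = 0.00615). Without wild-type GFP+ replicate 1 the 10-array value was 0.81 and not called (limma adjusted p = 0.0591). Without the library labelled wild-type GFP- replicate 3, the 12-array fit called daf-1 in both strains (adjusted p = 0.00167 in the mutant and 0.00917 in the wild type). A second daf-1 probe set gave 0.49 ± 0.140 in the mutant, past the threshold, and 0.48 ± 0.172 in the wild type, not past it, over 10 arrays (limma adjusted p = 0.0282 and 0.097).

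Of the SMADs, daf-8 was dim. This receptor-regulated SMAD acts downstream of DAF-1 and DAF-4, and its probe set had a log2 signal of 4.36 to 4.89 over the 12 arrays, below every array's median. The 10-array difference was 0.10 in the mutant (95% interval -0.17 to 0.37; limma adjusted p = 0.604) and -0.18 in the wild type (-0.51 to 0.15; adjusted p = 0.514). Over 12 arrays it was 0.10 ± 0.150 (SE) in the mutant and 0.03 ± 0.150 in the wild type (limma adjusted p = 0.75 and 0.963).

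daf-14 encodes the other dauer-branch SMAD. For daf-14 the log2 signal was 9.13, 9.20 and 9.04 in mutant GFP+ cells, against 8.38, 8.41 and 9.07 in mutant GFP- cells. Wild-type signals were 9.10, 8.57 and 10.40 in GFP+ cells, against 8.49, 8.67 and 10.51 in cells labelled GFP-. The fractions overlapped in both strains, and both wild-type replicate 3 arrays were above the other 10. The 10-array difference was 0.50 ± 0.207 (SE) in the mutant and 0.26 ± 0.253 in the wild type, neither past the threshold (limma adjusted p = 0.108 and 0.608). Over 12 arrays it was 0.50 ± 0.553 and 0.13 ± 0.553 (limma adjusted p = 0.644 and 0.953). Without mutant GFP- replicate 3 the mutant difference in the 10-array fit was 0.73 and passed (limma adjusted p = 0.0114). A second daf-14 probe set is of the kind that can also bind related transcripts. Over 10 arrays it gave 0.52 ± 0.408 and 0.55 ± 0.499, again not past the threshold (limma adjusted p = 0.407 and 0.569).

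daf-3, the co-SMAD that the ligand's pathway antagonises, had a log2 signal of 10.96, 10.29 and 10.78 in mutant GFP+ cells, against 10.10, 9.87 and 10.05 in mutant GFP- cells. The wild-type arrays had 10.62, 10.34 and 11.47 in GFP+ cells, against 9.82, 9.80 and 11.38 in cells labelled GFP-. As for daf-14, the replicate 3 arrays of both wild-type fractions were the highest of all. The mutant fractions did not overlap.

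The mutant difference in daf-3 was 1.59-fold (0.67 on the log2 scale), with an SE of 0.422 over 12 arrays (limma adjusted p = 0.357) and 0.176 over 10 (adjusted p = 0.0195); over 12 arrays the within-strain replicate block gave an adjusted p of 0.0371. In the wild type the difference was 0.48 ± 0.422 over 12 arrays (limma adjusted p = 0.699) and 0.67 ± 0.215 over 10 (adjusted p = 0.0673), where the within-strain block gave 0.0214. The 10-array mutant call was lost without mutant GFP+ replicate 1 or 3 or mutant GFP- replicate 2 (differences of 0.53 to 0.62, limma adjusted p = 0.0549 to 0.0713). A second daf-3 probe set, of the kind that can also bind related transcripts, passed in both strains over 10 arrays. It gave 0.81 ± 0.175 in the mutant and 0.91 ± 0.215 in the wild type (limma adjusted p = 0.00797 and 0.0197).

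daf-5 encodes a Sno/Ski family protein that works with DAF-3. Its log2 signal was 9.40, 9.89 and 10.26 in mutant GFP+ cells, against 9.04, 8.94 and 8.58 in mutant GFP- cells. Wild-type arrays read 9.62, 10.01 and 9.08 in GFP+ cells, against 9.08, 9.15 and 9.53 in cells labelled GFP-. The mutant fractions did not overlap, while in the wild type the replicate 3 arrays crossed, the GFP- array being above the GFP+ array.

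daf-5 differed 2-fold in the mutant (1.00 on the log2 scale), with an SE of 0.277 over 12 arrays (limma adjusted p = 0.0431) and 0.223 over 10 (adjusted p = 0.00928). The 12-array call was lost with a replicate block, within strain (adjusted p = 0.0699) or across all groups (0.054). It was also lost without any 1 of the 6 mutant arrays (differences of 0.79 to 1.22, limma adjusted p = 0.0573 to 0.145), and without wild-type GFP+ replicate 1 or wild-type GFP- replicate 1 or 2 (0.0512 to 0.0614). The wild-type difference did not pass, at 0.32 ± 0.277 over 12 arrays and 0.70 ± 0.273 over 10 (limma adjusted p = 0.694 and 0.125). A second daf-5 probe set gave 0.96 ± 0.190 in the mutant over 10 arrays (limma adjusted p = 0.00504), and both of these are of the kind that can also bind related transcripts. The remaining daf-5 probe set is not of that kind. It was dim, at 3.24 to 3.86 on all arrays, and showed a difference of 0.01 ± 0.167 in the mutant (limma adjusted p = 0.97). The daf-5 rise thus rests on probe sets that can also bind related transcripts.

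**Figure D3:**
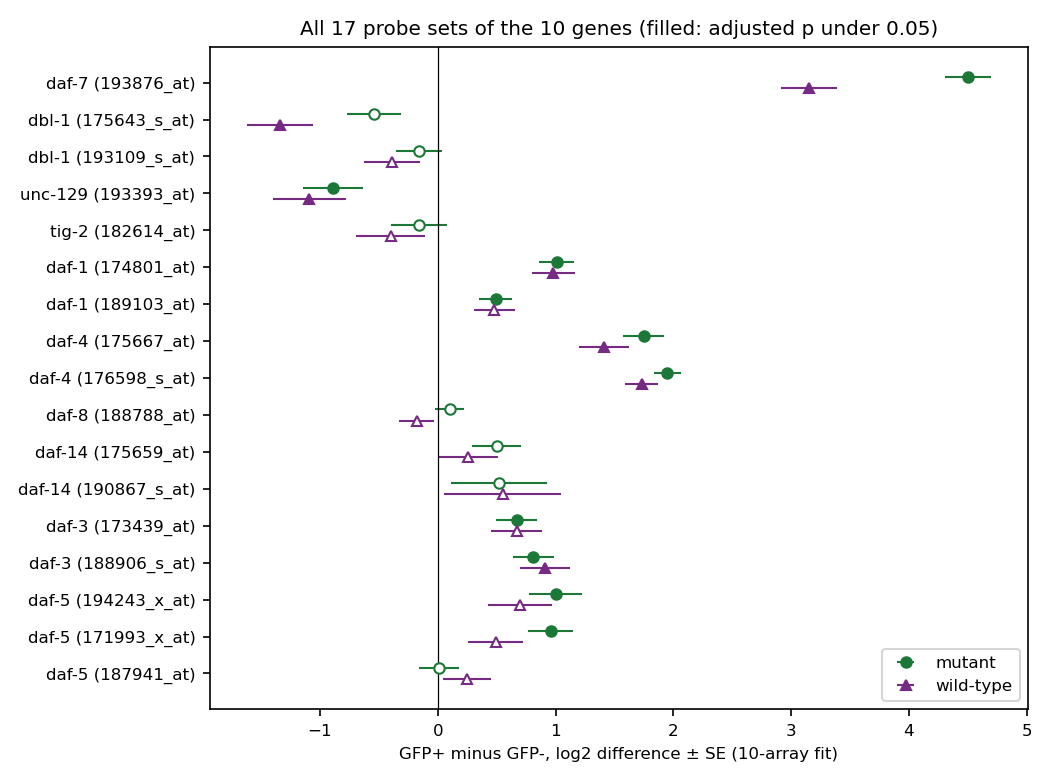
Log2 difference between GFP+ and GFP- cells (horizontal axis, 10-array fit, bars the standard error) for each of the 17 probe sets (vertical axis), in the mutant (circles) and the wild type (triangles); filled symbols have an adjusted p under 0.05. The 2 daf-4 probe sets lie at 1.75 and 1.95 in the mutant, while the daf-5 probe sets lie at 1.00, 0.96 and 0.01.

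Between the strains, daf-7 was the member with the most separated values in GFP+ cells, and it did not pass the adjusted threshold. No share of all genes was counted for separation between the strains. For daf-7 all 3 mutant GFP+ arrays, at 9.11 to 9.77, were above all 3 wild-type GFP+ arrays, at 7.99 to 8.13. The difference was 1.31 ± 0.809 (SE) over 12 arrays (unadjusted p = 0.136, limma adjusted p = 1). Over 10 arrays it was 1.27 ± 0.218, or 2.41-fold, with a 95% interval of 0.78 to 1.76 (unadjusted p = 0.000234, limma adjusted p = 0.406). ASI marker means were 5.02 to 5.12 in mutant GFP+ cells and 4.88 to 5.08 in wild-type GFP+ cells without replicate 3. Cilium means were 8.19 to 8.65 and 8.02 to 8.31. Wild-type GFP+ replicate 3, the lowest GFP+ array for daf-7, had the highest GFP+ means, 5.33 for ASI and 8.82 for cilium. The part of these markers in the daf-7 difference was not tested. Of the ASI genes daf-28 differed by 0.49 between the strains over 10 arrays and the other 5 by -0.12 to 0.19. In GFP- cells daf-7 differed by -1.34 (95% interval -3.14 to 0.45) over 12 arrays and by -0.08 (-0.57 to 0.41) over 10.

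The limma test called 0 of the 10 genes between the strains in GFP+ cells, over 12 or 10 arrays, and 0 and 1 had an unadjusted p under 0.05. The background was 0.0175% of all genes over 12 arrays and 0.0234% over 10, so hardly any gene was called in this contrast. An unadjusted p under 0.05 was held by 185 of all 17118 genes over 12 arrays and by 541 over 10. In GFP+ cells over 10 arrays the other 9 differences lay between -0.26 for dbl-1 (95% interval -0.84 to 0.31) and 0.29 for daf-14 (-0.23 to 0.81). Over 12 arrays they lay between -0.23 for daf-14 (-1.46 to 1.00) and 0.28 for daf-5 (-0.33 to 0.89). The difference in daf-14 thus turned between the fits, as did that in daf-3, which was 0.20 over 10 arrays and -0.14 over 12. Smaller differences in daf-8 and unc-129 turned as well. Of the 10 genes, 8 were above 0 over 10 arrays and 4 over 12. Over 10 arrays the receptors differed by 0.07 for daf-4 (-0.37 to 0.51) and -0.10 for daf-1 (-0.48 to 0.27).

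In GFP- cells limma also called 0 of the 10 genes between the strains, over 12 or 10 arrays, with 0 and 1 at an unadjusted p under 0.05. The background was 0.0234% of all genes over 12 arrays and 0.0175% over 10. An unadjusted p under 0.05 was held by 866 of all 17118 genes over 12 arrays and by 944 over 10. The member under 0.05 was dbl-1. It was at 6.24, 5.92 and 5.72 in mutant GFP- cells, against 7.47 and 6.56 on the wild-type GFP- arrays other than replicate 3. That difference was -1.05 ± 0.255 (SE) over 10 arrays, with a 95% interval of -1.63 to -0.48 (unadjusted p = 0.00241, limma adjusted p = 0.817), and -0.36 ± 0.505 over 12 (adjusted p = 0.883). On the second dbl-1 probe set it was -0.30 ± 0.219 over 10 arrays (adjusted p = 0.88).

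The interaction asks whether the GFP+ minus GFP- difference itself differs between mutant and wild type. The background was 0% of genes called over 12 arrays and 0% over 10. An unadjusted p under 0.05 was held by 259 of all 17118 genes over 12 arrays and by 212 over 10. Of the 10 genes, limma called 0 in either fit, with 1 at an unadjusted p under 0.05 in each. That gene was daf-7, whose fraction difference was larger in the mutant by 2.65 ± 1.14 over 12 arrays (unadjusted p = 0.0423, limma adjusted p = 1) and by 1.35 ± 0.308 over 10 (unadjusted p = 0.00172, limma adjusted p = 1). For the receptors the 10-array interaction was 0.34 for daf-4 (95% interval -0.28 to 0.96) and 0.03 for daf-1 (-0.50 to 0.56).

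The genes listed as partners and neighbours of the DAF-7 branch in dauer control included several of sensory signalling. Of 17 such genes, limma called 7 higher and 0 lower in mutant GFP+ cells over 12 arrays, where 6.36% of all genes were called higher, and 10 higher and 0 lower over 10, where 14.3% were. The wild-type fractions gave 0 in either direction over 12 arrays, where 0.00584% of all genes were called. There 6 of the 17 had an unadjusted p under 0.05, against 2183 of all 17118 genes. Over 10 arrays they gave 9 higher and 0 lower, where 8.78% of all genes were called higher. The list's median log2 difference was 0.836 in the mutant, against 0.009 for all genes. The largest differences were those of daf-11, a receptor guanylyl cyclase (4.95 ± 0.135 in the mutant and 4.72 ± 0.165 in the wild type, SE, 10 arrays), daf-28, which is also on the ASI list (4.71 ± 0.138 and 4.36 ± 0.169), and tax-4 and tax-2, the subunits of a cyclic-nucleotide-gated channel. tax-4 stood at 3.42 ± 0.161 in the mutant and 2.86 ± 0.197 in the wild type, and tax-2 at 2.45 ± 0.156 and 2.23 ± 0.192. These values lie with that of daf-7 above the differences of its receptors and SMADs. daf-12, the nuclear receptor of the dauer decision, and daf-9, which makes its ligand, were not called, at 0.37 ± 0.238 and 0.09 ± 0.217 in the mutant over 10 arrays.

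The genes of the Sma/Mab branch, which share DAF-4 with the dauer branch, went both ways. Of 20 listed genes 17 had a probe set; limma called 2 higher and 1 lower in mutant GFP+ cells over 12 arrays, and 5 higher and 3 lower over 10. The shares over all genes were 6.36% higher and 6.6% lower over 12 arrays and 14.3% and 14.6% over 10. The wild-type fractions gave 0 in either direction over 12 arrays, where 0.00584% of all genes were called. There 4 of the 17 had an unadjusted p under 0.05, against 2183 of all 17118 genes. Over 10 arrays they gave 3 higher and 2 lower, against 8.78% and 8.07% of all genes. Over 10 arrays the list's median was 0.006 in the mutant and -0.051 in the wild type. Higher in mutant GFP+ cells over 10 arrays were sma-9, a Schnurri-type transcription factor (0.91 ± 0.136, SE), mab-31 (0.88 ± 0.244), the kinase gene kin-29 (0.78 ± 0.147) and the netrin receptor gene unc-40 (0.74 ± 0.140). Lower were lon-1, a secreted regulator of body size (-2.43 ± 0.392), the SMAD gene sma-3 (-1.12 ± 0.303) and mab-21 (-0.60 ± 0.176). Among wild-type cells over 10 arrays kin-29, sma-9 and unc-40 were higher, at 0.81, 0.79 and 0.66, and lon-1 and mab-21 lower, at -2.35 and -0.87. The other SMADs sma-2 and sma-4 and the type I receptor gene sma-6 were not called in either strain, at 0.01 ± 0.134, 0.12 ± 0.172 and -0.41 ± 0.173 in the mutant over 10 arrays.

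**Figure D4:**
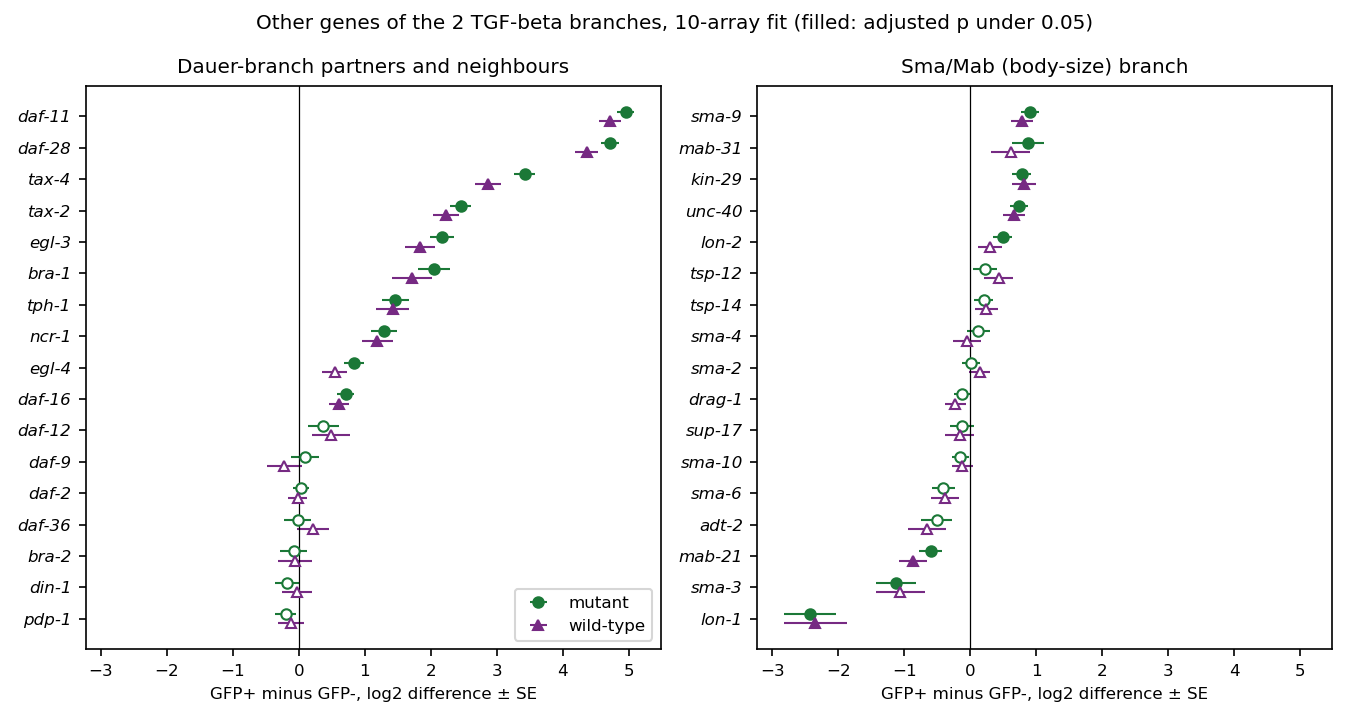
Log2 difference between GFP+ and GFP- cells (horizontal axes, 10-array fit, bars the standard error) for the 17 listed genes of the dauer branch (left) and the 17 of the Sma/Mab branch (right), in the mutant (circles) and the wild type (triangles); filled symbols have an adjusted p under 0.05. The dauer-branch genes reach 4.95 for daf-11 in the mutant, and the Sma/Mab genes reach down to -2.43 for lon-1.

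Across the 12 arrays, which share fractions and replicate numbers, the dauer-branch members varied in how closely they followed daf-7. The Pearson correlation of daf-7 with daf-4 was 0.967, with daf-1 0.916, with daf-5 0.813 and with daf-3 0.743. With unc-129 and dbl-1 it was -0.856 and -0.736, with daf-14 0.539 and with daf-8 0.017. These describe the same split by fraction and are not further tests of it.

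For each ligand the 3 genes with the highest correlation over the 12 arrays were listed. Being picked for likeness on these same arrays, they share the ligand's pattern by choice and are not a further test of it. For daf-7 they were the chemoreceptor gene sri-70 (0.994), the sulfotransferase gene ssu-1 (0.983) and F27C1.11 (0.982). On the 10 arrays ssu-1 was at 8.72 to 8.98 in mutant GFP+ cells and 3.63 to 4.37 in mutant GFP- cells, and at 8.51 to 8.57 in wild-type GFP+ cells and 3.70 to 4.39 in wild-type GFP- cells. sri-70 was at 6.70 to 7.31 in mutant GFP+ cells and 6.22 to 6.40 in wild-type GFP+ cells. Its difference of 0.71 ± 0.174 did not pass the test (limma adjusted p = 1).

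For dbl-1 the most similar genes were sav-1 (0.962), the nuclear receptor gene nhr-40 (0.958) and the Hox gene mab-5 (0.950). In mutant GFP- cells mab-5 was at 7.39 to 7.62, against 7.89 to 8.60 in wild-type GFP- cells without replicate 3. Its difference of -0.72 ± 0.198 over 10 arrays did not pass the test (limma adjusted p = 0.878). For unc-129 they were pat-4, the integrin-linked kinase of muscle attachments (0.960), ces-2 (0.960) and H12D21.9 (0.952). pat-4 was at 7.75 to 8.09 in mutant GFP+ cells and 8.72 to 9.53 in mutant GFP- cells. For tig-2 they were T08G3.4 (0.914), srp-3 (0.896) and cblc-1 (0.882), the first 2 being dim, at 3.03 to 3.92 on the 10 arrays.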

How the data were processed

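The deposited table holds log2 signals, 1 per probe set and array, as the authors made them. RMA, MAS5, affy and limma are the tools listed, with no roles, in the submitters' processing notes; which made the table, and its genome build, are not given in the sources used here. No further scaling was applied; the number of arrays limits the precision. Of the probe sets, 22548 were tested after control probe sets were set aside. limma 3.58.1 in R 4.3.3 fitted 4 group means with eBayes, 2-sided, with Benjamini-Hochberg adjustment over all probe sets and a threshold of 0.05, after a test on simulated data. Counts over all genes use each gene's brightest probe set that is assigned to no other gene. Figures used matplotlib 3.10.9.

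The members, lists, tests and alternatives, the 10-array fit included, were chosen with earlier results of these data known. All members are named; from the dauer-branch and Sma/Mab lists, called genes are named, at most the 4 largest per direction; marker lists are given by counts and means. The ASI genes and the uncalled daf-12, daf-9, sma-2, sma-4 and sma-6 were named after their values were seen.

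Same-numbered arrays deviated together between fractions (correlations 0.360, 0.435 and 0.359 in the mutant; 0.485, 0.410 and 0.418 in the wild type) and between mutant and wild-type GFP+ cells (0.278, 0.185 and 0.229), but not between the GFP- groups (0.232, -0.070 and -0.029). Replicate numbers were taken to pair the fractions and the GFP+ groups, and blocked fits were alternatives.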

Additional observations from a re-analysis of the deposited data

How the results depend on the processing

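Over 12 arrays the count of the 10 genes called between the mutant fractions, 3, became 6 when the mutant arrays were fitted alone and 6 with limma array weights, and 0 to 5 when single arrays were left out. It was 0 without any of mutant GFP+ replicates 1, 2 and 3 or mutant GFP- replicates 1 and 3, and 5 without wild-type GFP- replicate 3. In the wild type the 12-array count of 0 became 6 with array weights, and 0 to 5 when single arrays were left out, 5 without the library labelled wild-type GFP- replicate 3. The share of all genes called was not counted under any alternative setting, blocked fits included, so these counts stand without a background. The wild-type 10-array count of 5 ran from 3 to 5, with 3 without wild-type GFP+ replicate 1, GFP+ replicate 2 or GFP- replicate 1. Over 10 arrays, daf-7, daf-4, daf-1 and daf-5 were called in the mutant whichever array was left out, and daf-7 and daf-4 in the wild type; daf-3 and unc-129 lost their mutant call in some. Differences near 0 changed sign: daf-8 in the wild type over 12 arrays (-0.16 with array weights), and, with single arrays left out, the ranges were -0.08 to 0.12 for daf-8, -0.43 to 0.11 for tig-2 in the mutant over 12 arrays and -0.43 to 0.11 over 10, -0.39 to 0.78 for daf-14 in the wild type over 12 arrays and -0.01 to 0.52 over 10, and -1.05 to 0.22 for dbl-1 between the strains in GFP- cells over 12 arrays. Between the strains and in the interaction, uncalled differences changed sign more often: over all 10 genes, in GFP+ cells 13 times with single arrays left out and 12 times under other settings over 12 arrays (8 and 0 over 10), in GFP- cells 8 and 3 times (5 and 1 over 10), and in the interaction 12 and 2 times (11 and 0 over 10). The cause was not tested. The daf-5 call over 12 arrays was also lost with further quantile normalization (adjusted p = 0.0577) and with the mean of its probe sets (0.0524). The replicate block left 3 of the genes called between the mutant fractions over 12 arrays and 4 within strain, and 7 over 10 arrays; 6 in the wild type over 10 arrays; apart from the calls given with each gene it changed none.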
